A study of Mus musculus with 4 samples.

Results

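The respiratory chain of the inner mitochondrial membrane was followed here through the transcripts of its complexes I, II and III in the mouse lung. Genes were taken by symbol from the deposited expression table, which gave every Ndufa, Ndufb, Ndufc, Ndufs and Ndufv gene with a numbered symbol, the 4 Sdh genes and every Uqcr gene. The symbols matched 52 of 17780 genes, with 40 in complex I, 4 in complex II and 8 in complex III. A mean level of 1 FPKM or more was reached by 50 of them, namely 38, 4 and 8 by complex, where FPKM is a level of reads corrected for library size and for transcript length. Assembly factors, the acyl carrier protein Ndufab1 and cytochrome c1 (Cyc1) fell outside the symbol rule and were described separately. Subunits encoded by mitochondrial DNA were not analysed here.

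Complex I oxidises NADH, complex II oxidises succinate, and both pass electrons to coenzyme Q. Complex III then moves them from coenzyme Q to cytochrome c, and complexes I and III pump protons as they do so. The 7 nuclear-encoded core subunits of complex I, called core subunits here, carry the flavin and the iron-sulfur clusters and contribute to the coenzyme Q site. Other core subunits are encoded by mitochondrial DNA and were not analysed. The remaining nuclear-encoded subunits, called supernumerary, surround the core. In the lung, mitochondria are abundant in alveolar type 2 cells, club cells and ciliated cells, and heart muscle in the walls of the large pulmonary veins of rodents is also rich in them. Amiodarone, an antiarrhythmic drug, is a cationic amphiphilic compound known to act on mitochondria as well as on lysosomes. Dabigatran inhibits thrombin.

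The study asked whether dabigatran, given together with amiodarone, alters the lung injury that long amiodarone treatment causes in mice. Lungs of C57BL/6 mice were profiled by sequencing of polyadenylated RNA after 28 days, by the labels, of vehicle, amiodarone, dabigatran, or amiodarone and dabigatran together (the combination). Each treatment was represented by 1 library, so no difference between treatments had a replicate check and no p-value was computed. The libraries held 17498486 (vehicle), 18725403 (amiodarone), 17752873 (dabigatran) and 18903401 (combination) estimated reads. Whether a library came from 1 animal or from a pool was not given in the sources used here.

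Ratios between libraries are ratios of FPKM, and the interval in parentheses after a ratio is the exact 95% Clopper-Pearson interval of the reads of the pair of libraries. Such intervals cover counting error only and compare libraries, not treatments. A gene was counted as higher or lower by at least 1.2-fold on the scale of log2(FPKM + 1). Markers of lung cells matched the labelled tissue: the summed level of 6 alveolar type 2 genes was 25400, 26200, 24900 and 26800 FPKM in the vehicle, amiodarone, dabigatran and combination libraries, and that of 5 alveolar type 1 genes was 3210, 3300, 3260 and 3460 FPKM, with no marker of either list at 0.

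Transcripts of the 3 complexes were abundant in all libraries. The median of the mean levels of the 50 subunits was 68.3 FPKM against 10.9 FPKM for the 13183 genes that averaged 1 FPKM or more (all genes tested), and 50 of the 50 lay above that overall median. In the vehicle library the median level was 68.6 FPKM in complex I (16 to 223), 73.9 FPKM in complex II (44.0 to 106) and 117 FPKM in complex III (42.2 to 172). Together the subunits took 0.313%, 0.287%, 0.291% and 0.302% of the reads of the vehicle, amiodarone, dabigatran and combination libraries. These transcripts were short, with a median effective length of 673 bases against 2750 bases for all genes tested. The effective lengths of Ndufa11 (2610 bases) and Uqcrq (1470 bases) stood well above that median, so their level per length rests on the transcript model used.

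The 3 highest levels in complex I belonged to Ndufa4, Ndufa3 and Ndufb11. Ndufa4 measured 222.7, 197.8, 206.4 and 213.9 FPKM in the vehicle, amiodarone, dabigatran and combination libraries. Ndufa3 measured 199.8, 176.6, 181.7 and 185.3 FPKM, and Ndufb11 152.1, 134.6, 139.1 and 136.5 FPKM, in the same order. In each of these 3 genes the vehicle library was the highest and the amiodarone library the lowest. Ndufa4 is classed by later biochemistry with complex IV although its symbol places it in complex I.

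Levels varied little among the libraries. The ratio of a subunit's highest library to its lowest had a median of 1.13 (1.05 to 1.31), against 1.22 for all genes tested and 1.17 for the 6954 genes that averaged 10 FPKM or more. The highest of the 4 levels was in the vehicle library for 32 of 50 subunits, in the combination library for 13, in the amiodarone library for 4 and in the dabigatran library for 1. Of all genes tested, 28.4%, 23.4%, 21.5% and 27.4% were highest in these libraries, in the same order. The lowest level was in the amiodarone library for 29 subunits and in the dabigatran library for 13, against 37.9% and 20.2% of all genes. These counts depended on scaling. With FPKM set to the same sum in each library (TPM), the vehicle library was the highest for 16 of 50 subunits (32.0%), against 15.2% of all genes. The combination library was then also the highest for 16 (32.0%), against 21.4% of all genes. With libraries rescaled by the median ratio of genes, the dabigatran library was the lowest for 22 subunits and the amiodarone library for 18. Of all genes 23.8% and 28.5% were lowest there. The ratio of highest to lowest reached 1.1 in 35 subunits, 1.2 in 10 and 1.5 in 0. The plot of levels by library shows the 4 points of a gene lying close together beside the differences between genes.

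**Figure D1:**
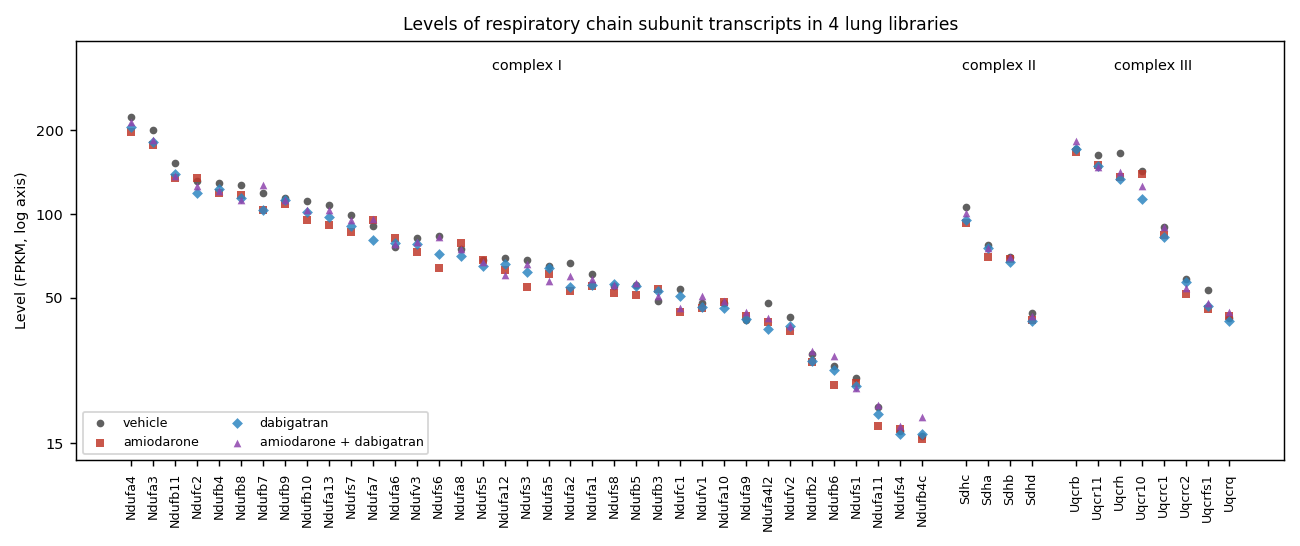
FPKM (log axis) of 49 subunits that averaged 1 FPKM or more, in the vehicle, amiodarone, dabigatran and combination libraries, ordered by mean level within each complex; each point is 1 library, without replicates. Levels run from 15.5 FPKM (Ndufb4c, amiodarone) to 223 FPKM (Ndufa4, vehicle), and no gene's highest library exceeds its lowest by more than 1.31-fold.

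Between amiodarone and vehicle, most subunits were slightly lower in the amiodarone library. By any amount, 41 of 50 were lower (30 of 38 in complex I, 4 of 4 in complex II and 7 of 8 in complex III), where 58.6% of all genes tested were lower and 41.1% higher. By at least 1.2-fold, 6 of 50 (12%) were lower and 0 were higher, against 18.6% and 11.5% of all genes. The share on the lower side was thus above the background, while the share past 1.2-fold was below it. Beyond counting error, 23 of 50 (46.0%) were lower and 0 higher. Of all genes 30.0% were lower and 19.5% higher beyond counting error, and of the genes averaging 10 FPKM or more, whose counting error is nearer to that of the subunits, 31.9% and 24.4%. The median difference in log2(FPKM + 1) was -0.13 in complex I, -0.11 in complex II and -0.10 in complex III, against -0.05 (-0.045) over all genes. By TPM these medians were -0.039, -0.017 and -0.007, against 0.04 (0.040) over all genes, and the subunits lower by at least 1.2-fold numbered 1 (3 with libraries rescaled by the median ratio of genes). With the reads of all subunits pooled, the share of the library was 0.916 of that in the vehicle library (0.905 to 0.927).

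The largest amiodarone to vehicle difference was that of Ndufs6, a zinc-binding subunit of the arm of complex I that projects into the matrix. Ndufs6 (NCBI gene 407785, chr13:73319876-73328482) measured 83.6 FPKM in the vehicle, 64.0 in the amiodarone, 71.9 in the dabigatran and 82.7 in the combination library. The amiodarone library was the lowest of the 4, at 0.766 of vehicle (0.682 to 0.860), and the combination library lay close to vehicle. Ndufa2, a small subunit with a thioredoxin-like fold (NCBI gene 17991, chromosome 18), measured 66.7, 52.8, 54.8 and 60.0 FPKM in that order. Its amiodarone to vehicle ratio was 0.792 (0.704 to 0.889), and all of the drug libraries were below vehicle. Ndufc1, a small membrane subunit (NCBI gene 66377, chr3:51405479-51408955), measured 53.9, 44.3, 50.9 and 45.7 FPKM, with a ratio of 0.823 (0.701 to 0.965). In Ndufc1 the libraries with amiodarone, alone and combined, were both lower than the libraries without it.

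Among the nuclear-encoded core subunits of complex I, 7 of 7 were lower with amiodarone than with vehicle. Their median difference was -0.16 against -0.12 for the 31 supernumerary subunits. Ndufs3, a core subunit of the matrix arm (NCBI gene 68349, chr2:90894627-90904721), measured 68.6, 54.6, 61.7 and 66.4 FPKM in the vehicle, amiodarone, dabigatran and combination libraries, and its amiodarone to vehicle ratio was 0.796 (0.728 to 0.871). Its combination library lay near vehicle. Others differed less. Ndufs7, which carries the last iron-sulfur cluster before coenzyme Q, stood at 0.871 (0.803 to 0.945) and Ndufv2, an iron-sulfur subunit, at 0.891 (0.818 to 0.970). Ndufs8 at 0.949, Ndufv1, the NADH-binding flavin subunit, at 0.954 and Ndufs1, the largest iron-sulfur subunit, at 0.957 had intervals that included 1.

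The 8 complex I subunits that were higher with amiodarone were all supernumerary, and the intervals of all 8 included 1. The highest ratios were those of Ndufb3 at 1.1 (0.988 to 1.23), Ndufa6 at 1.08 (0.970 to 1.2) and Ndufa8 at 1.06 (0.964 to 1.16). Ndufb3 measured 48.5, 53.5, 52.9 and 50.5 FPKM in the vehicle, amiodarone, dabigatran and combination libraries, so that its vehicle library was the lowest. Just past the 1.2-fold bound lay Ndufc1 at -0.28 on the log2 scale, and just short of it Ndufa13 at -0.23.

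In complex II, the flavoprotein Sdha measured 77.4, 70.0, 75.7 and 75.5 FPKM in the vehicle, amiodarone, dabigatran and combination libraries, with an amiodarone to vehicle ratio of 0.905 (0.864 to 0.947). The iron-sulfur subunit Sdhb measured 70.3, 69.2, 67.2 and 70.2 FPKM, with a ratio of 0.984 (0.910 to 1.06). The membrane anchor Sdhc measured 106.3, 92.8, 95.2 and 100.8 FPKM, with a ratio of 0.873 (0.820 to 0.929). The second anchor, Sdhd, measured 44.0, 41.6, 41.4 and 42.9 FPKM, with a ratio of 0.945 (0.863 to 1.03). Sdha and Sdhc were therefore lower beyond counting error with amiodarone, and for Sdhb and Sdhd no difference was detectable at this depth.

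In complex III, Uqcrh, the acidic hinge protein that assists electron transfer to cytochrome c (NCBI gene 66576, chr4:116066965-116075070), showed the largest difference and the sole one past 1.2-fold. It measured 165.9 FPKM in the vehicle, 135.8 in the amiodarone, 134.1 in the dabigatran and 141.1 in the combination library, so each drug library was below vehicle and the drug libraries lay close together. Its amiodarone to vehicle ratio was 0.819 (0.758 to 0.884). The Rieske iron-sulfur protein Uqcrfs1 measured 53.3, 45.6, 46.7 and 47.8 FPKM, the same arrangement, with a ratio of 0.856 (0.787 to 0.93). The core proteins Uqcrc1 and Uqcrc2 stood at 0.939 (0.888 to 0.993) and 0.885 (0.829 to 0.945). The small subunits Uqcr11 at 0.923, Uqcrb at 0.978, Uqcr10 at 0.974 and Uqcrq at 1.02 had intervals that included 1. In the plot of ratios by subunit, complex II and III genes lie within the range of complex I genes.

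**Figure D2:**
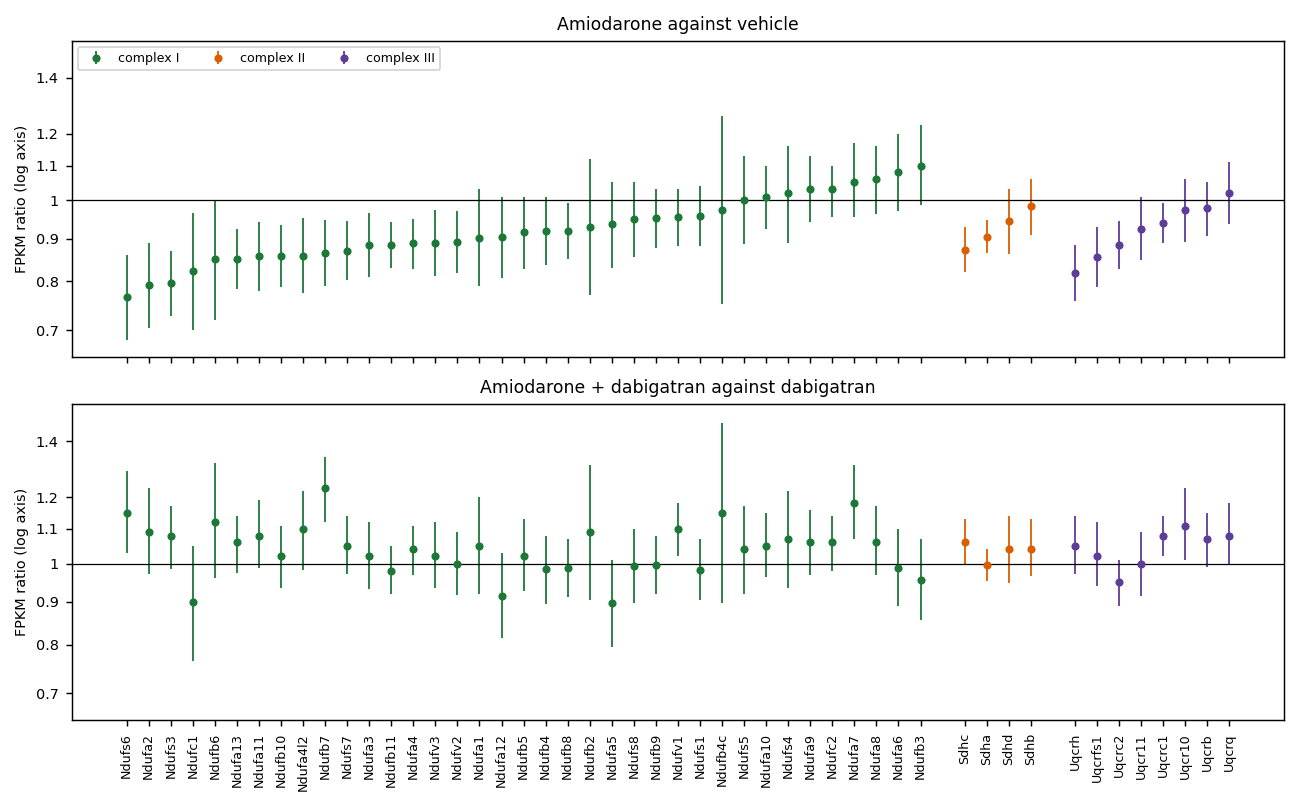
FPKM ratios (log axis) of 49 subunits between the amiodarone and vehicle libraries (upper panel) and between the combination and dabigatran libraries (lower panel), in the order of the upper panel; points are ratios and bars their exact 95% counting intervals, with 1 library per group. In the upper panel 40 points lie below 1 and 22 intervals exclude it, and in the lower panel 34 points lie above 1 and 6 intervals exclude it.

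Of the 6 genes at least 1.2-fold lower with amiodarone, 4 had a promoter window in the RefSeq table for GRCm38.p6, and the 150 bases before their annotated starts are shown because these genes carry the largest differences. Sequences run 5′ to 3′ on the strand of the gene, and capitals mark matches to the motifs searched. The stretches are chr13:73328483-73328632 (Ndufs6, minus strand), chr2:90904722-90904871 (Ndufs3, minus strand), chr3:51408956-51409105 (Ndufc1, minus strand) and chr4:116075071-116075220 (Uqcrh, minus strand).
Ndufs6: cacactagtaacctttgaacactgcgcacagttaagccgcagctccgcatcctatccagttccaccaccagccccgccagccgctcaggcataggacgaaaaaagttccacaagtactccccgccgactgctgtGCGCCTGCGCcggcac
Ndufs3: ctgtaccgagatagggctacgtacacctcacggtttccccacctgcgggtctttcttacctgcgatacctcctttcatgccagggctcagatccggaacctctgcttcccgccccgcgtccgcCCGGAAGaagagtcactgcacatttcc
Ndufc1: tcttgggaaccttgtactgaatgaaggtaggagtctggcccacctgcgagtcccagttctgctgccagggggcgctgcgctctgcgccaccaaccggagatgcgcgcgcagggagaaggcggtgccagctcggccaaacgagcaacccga
Uqcrh: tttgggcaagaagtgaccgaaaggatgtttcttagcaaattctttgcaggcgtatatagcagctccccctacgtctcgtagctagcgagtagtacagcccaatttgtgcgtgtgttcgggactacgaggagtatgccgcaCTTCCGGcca
The capitals are GCGCCTGCGC, a match to the loose nuclear respiratory factor 1 motif, with 1 free base in the middle, in Ndufs6, and the ETS-type motif CCGGAAG in Ndufs3 and, read on the other strand as CTTCCGG, in Uqcrh. The Ndufc1 stretch held none of the motifs.

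Windows of 250 bases before to 50 bases after the start were found for 40 of the 50 genes, and motifs known from promoters of respiratory genes were searched on both strands. The full nuclear respiratory factor 1 palindrome occurred in 2 of 40 windows (5.0%), against 2.18% of the windows of 10492 genes tested here and 1.07% of all 27025 windows. Its shorter part GCATGCGC occurred in 6 (15%), against 5.59% and 3.05%. The loose form of the palindrome with 1 free base in the middle, chosen after the first matches were seen, occurred in 10 (25.0%), against 10.9% and 5.19%, and includes every full palindrome. The ETS-type CCGGAAG occurred in 8 (20.0%), against 19.1% and 9.93%. AAGATGGCG, a YY1-type motif, occurred in 5 (12.5%), against 3.35% and 1.64%, among them Ndufs6 and Ndufc1 at positions beyond the start. TCAAGGTCA, an estrogen-related receptor motif, occurred in 1 (2.50%), the anchor gene Sdhd, against 0.315% and 0.466%. A match is a stretch of letters and was not examined for binding.

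Dabigatran without amiodarone was also accompanied by lower subunit levels. By any amount, 45 of 50 were lower than with vehicle (33 of 38, 4 of 4 and 8 of 8 by complex), where 49.4% of all genes were lower and 50.1% higher. By at least 1.2-fold, 4 of 50 (8.0%) were lower and 0 higher, against 5.31% and 4.79% of all genes. Beyond counting error 21 of 50 (42.0%) were lower and 0 higher, against 13.4% lower and 15.2% higher of all genes, or 17.5% and 18.4% of genes averaging 10 FPKM or more. The median difference in log2(FPKM + 1) was -0.09 in complex I (-0.085), -0.08 in complex II (-0.076) and -0.12 in complex III (-0.122), against 0.00 (0.001) over all genes. By TPM they were -0.011, -0.000 and -0.046, against 0.07 (0.070) over all genes. On that scale 0 subunits were lower by at least 1.2-fold, a count given without the share of all genes. This comparison shares the vehicle library with the amiodarone to vehicle comparison, so the counts of the 2 comparisons are not independent.

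The 4 genes past 1.2-fold with dabigatran were Uqcr10, Ndufa4l2, Uqcrh and Ndufa2. Uqcr10, a small complex III subunit, measured 143.2, 139.5, 113.7 and 126.6 FPKM in the vehicle, amiodarone, dabigatran and combination libraries. The dabigatran library was the lowest, at 0.794 of vehicle (0.722 to 0.872), while amiodarone alone was near vehicle. Ndufa4l2, a hypoxia-inducible relative of Ndufa4, measured 47.8, 41.0, 38.5 and 42.2 FPKM, with a dabigatran to vehicle ratio of 0.806 (0.723 to 0.897). Uqcrh stood at 0.808 (0.747 to 0.874) and Ndufa2 at 0.822 (0.731 to 0.923). The next largest complex I difference was that of Ndufs6, at 0.860 (0.767 to 0.964), which lay outside the 1.2-fold bound at -0.21 (-0.215) on the log2 scale, whereas Ndufa2 lay inside it at -0.28.

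Among the core subunits with dabigatran, Ndufs3 stood at 0.899 (0.824 to 0.982) and Ndufs7 at 0.916 (0.844 to 0.994) of vehicle. Ndufv2 at 0.929, Ndufs1 at 0.937, Ndufv1 at 0.967 and Ndufs8 at 1.02 had intervals that included 1. In complex II, Sdhc stood at 0.895 (0.841 to 0.953), and Sdha at 0.977, Sdhb at 0.955 and Sdhd at 0.941 were within counting error of vehicle. In complex III, Uqcrfs1 at 0.876 (0.805 to 0.953), Uqcr11 at 0.913 (0.837 to 0.996) and Uqcrc1 at 0.924 (0.873 to 0.978) were also lower, while Uqcrc2 at 0.982, Uqcrq at 0.974 and Uqcrb at 0.999 were not beyond counting error. The highest ratios in complex I were those of Ndufb3 at 1.09 (0.975 to 1.22), Ndufa6 at 1.04 (0.932 to 1.16) and Ndufs8.

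When dabigatran was added to amiodarone, most subunits were higher than with amiodarone alone. The amiodarone library is shared with the amiodarone to vehicle comparison, so the counts of these comparisons are not independent either. By any amount, 39 of 50 were higher (29 of 38, 4 of 4 and 6 of 8 by complex), where 57.9% of all genes were higher and 41.7% lower. By at least 1.2-fold, 4 of 50 (8.0%) were higher and 0 lower, against 9.22% and 5.66% of all genes. Beyond counting error 16 of 50 (32.0%) were higher and 1 (2.0%) lower, against 21.1% and 14.9% of all genes, or 25.8% and 18.9% of genes averaging 10 FPKM or more. The median differences were 0.06 in complex I (0.063), 0.08 in complex II (0.076) and 0.06 in complex III (0.061), against 0.03 (0.031) over all genes, so the excess over the whole table was small. By TPM they were 0.021, 0.034 and 0.020, against -0.01 (-0.006) over all genes. On that scale 2 subunits were higher by at least 1.2-fold, a count given without the share of all genes.

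The 4 genes at least 1.2-fold higher with the combination than with amiodarone were all in complex I. Ndufs6 stood at 1.29 (1.15 to 1.45) and Ndufs3 at 1.22 (1.11 to 1.33), both from the low amiodarone values given above. Ndufb6, a small membrane subunit, measured 28.5, 24.2, 27.5 and 30.9 FPKM in the vehicle, amiodarone, dabigatran and combination libraries, with a ratio of 1.27 (1.09 to 1.5). Ndufb7, a membrane-arm subunit facing the intermembrane space, measured 119.1, 103.0, 103.8 and 127.4 FPKM, with a ratio of 1.24 (1.13 to 1.35). In both genes the combination library was the highest of the 4 and the amiodarone library the lowest. Ndufs3 lay just inside the 1.2-fold bound at 0.28 on the log2 scale and Ndufb4c just outside it at 0.24. The lowest ratios in complex I were those of Ndufc2 at 0.936 (0.871 to 1.01), Ndufb3 at 0.944 (0.847 to 1.05) and Ndufa5 at 0.945 (0.837 to 1.07).

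Other core subunits stood at 1.11 (Ndufs7, 1.02 to 1.2, and Ndufv1, 1.03 to 1.2), 1.07 (Ndufs8, 0.964 to 1.18), 1.04 (Ndufv2, 0.956 to 1.13) and 0.961 (Ndufs1, 0.887 to 1.04) of amiodarone alone. In complex II, Sdhc at 1.09 (1.02 to 1.16) and Sdha at 1.08 (1.03 to 1.13) were higher beyond counting error, and Sdhd at 1.03 and Sdhb at 1.01 were not. In complex III, Uqcrb at 1.09 (1.01 to 1.17) and Uqcrc1 at 1.06 (1.0 to 1.12) were higher, and Uqcr10 at 0.907 (0.830 to 0.992) was the subunit lower beyond counting error. Uqcrc2 and Uqcrfs1 at 1.05, Uqcrh and Uqcrq at 1.04 and Uqcr11 at 0.987 had intervals that included 1.

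Against dabigatran alone, the combination library was slightly higher in most subunits. Its libraries are shared with the dabigatran to vehicle and combination to amiodarone comparisons. By any amount, 35 of 50 were higher (26 of 38, 3 of 4 and 6 of 8 by complex), where 47.3% of all genes were higher and 52.4% lower. By at least 1.2-fold, 1 of 50 (2.0%), Ndufb7 at 1.23 (1.12 to 1.34), was higher and 0 were lower, against 10.5% and 12.1% of all genes. Beyond counting error 6 of 50 (12%) were higher and 0 lower, against 19.5% and 23.3% of all genes, or 26.0% and 24.5% of genes averaging 10 FPKM or more, so the share of subunits was below the background. Besides Ndufb7 these were Ndufa7 at 1.18 (1.07 to 1.31), Ndufs6 at 1.15 (1.03 to 1.29), Uqcr10 at 1.11 (1.01 to 1.23), Ndufv1 at 1.1 (1.02 to 1.18) and Uqcrc1 at 1.08 (1.02 to 1.14). The median differences were 0.06 in complex I (0.060), 0.06 in complex II (0.057) and 0.08 in complex III (0.082), against -0.01 (-0.012) over all genes, and by TPM 0.037, 0.034 and 0.059, against -0.03 (-0.032). The lowest ratios were those of Ndufa5 at 0.897 (0.795 to 1.01), Ndufc1 at 0.899 (0.766 to 1.05) and Ndufa12 at 0.916 (0.815 to 1.03), all within counting error.

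The step from without to with amiodarone was thus measured in 2 pairs of libraries that share none, vehicle to amiodarone and dabigatran to combination. In 28 of 50 subunits (56.0%) the amiodarone library was below vehicle and the combination library above dabigatran, an arrangement found in 20.6% of all genes. Beyond counting error in both steps it was found in 3 of 50 (6.0%), Ndufb7, Ndufs6 and Uqcrc1, against 2.03% of all genes and 3.18% of genes averaging 10 FPKM or more. The second step less the first had a median of 0.16 on the log2 scale (0.163 in complex I, 0.135 in complex II and 0.157 in complex III), against 0.03 (0.033) over all genes, and it was above 0 in 47 of 50 subunits (94.0%), against 56.2% of all genes. It was not particular to complexes I to III. The median was 0.308 in assembly factors, 0.280 in cytosolic ribosomal proteins and 0.215 in complex IV, lists described below. In coenzyme Q synthesis it was 0.206 and in ATP synthase 0.192. It was smaller in biogenesis regulators (0.147), mitochondrial ribosomal proteins (0.107), tricarboxylic acid cycle enzymes (0.104) and membranes and import (0.072). The same quantity compares the dabigatran step without and with amiodarone: in 36 of 50 subunits (72.0%) dabigatran was below vehicle and the combination above amiodarone, against 30.8% of all genes. With 4 libraries this quantity has no error estimate from replicates, and it depended on scaling. With FPKM set to the same sum in each library its median was 0.04 (0.042) and 31 of 50 subunits were above 0, while the median of all genes was -0.07 (-0.072). In the plot of the amiodarone step without and with dabigatran, most points fall in the upper left quadrant.

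**Figure D3:**
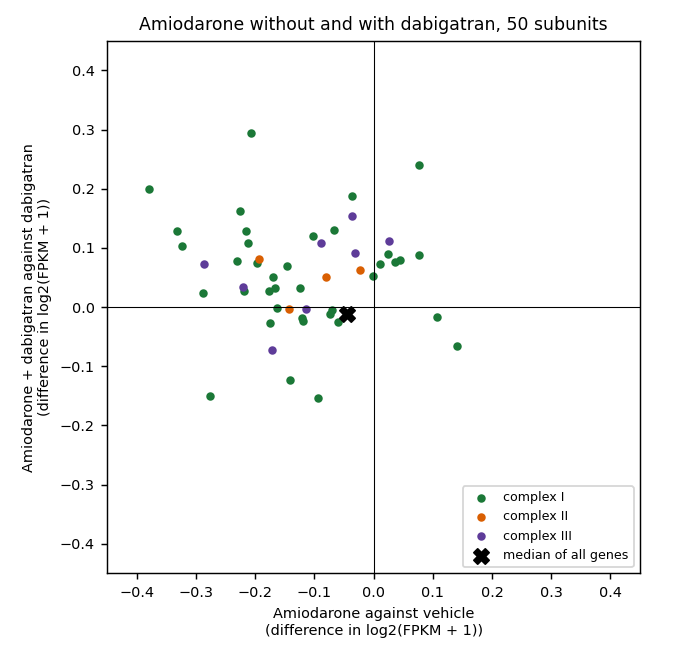
Difference in log2(FPKM + 1) of 50 subunits between amiodarone and vehicle (horizontal axis) and between the combination and dabigatran (vertical axis), coloured by complex; each point is 1 gene and the cross is the median of all 13183 genes tested. The upper left quadrant holds 28 subunits, the lower left 13, the upper right 7 and the lower right 2, while the cross lies at -0.045 and -0.012.

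Because the differences were small, the scale on which libraries were compared bore on them directly. The secretoglobin Scgb1a1 of club cells made up 21.0%, 13.3%, 17.6% and 17.1% of the summed FPKM of the vehicle, amiodarone, dabigatran and combination libraries, so a scale that fixes this sum raises all other genes where Scgb1a1 is low. On that scale 30 of 50 subunits were lower and 20 higher with amiodarone than with vehicle, where 42.7% of all genes were lower. With dabigatran against vehicle 30 were lower and 20 higher, where 31% of all genes were lower. With the combination against amiodarone 32 were higher and 18 lower, where 51.4% of all genes were lower. Rescaling by the median ratio of genes gave 33 higher and 17 lower in the last comparison, where 50.7% of all genes were lower. With the same sum taken without Scgb1a1, 45 subunits were lower and 5 higher with amiodarone than with vehicle, where 64.6% of all genes were lower. The subunit median was then -0.159 (-0.122 as deposited), against -0.078 over all genes (-0.045 as deposited). A scaling multiplies a whole library by 1 factor and so shifts all genes nearly alike, which fixes the place of a gene relative to the median of all genes almost by construction and is no check of it. As deposited, 36 of 50 subunits lay below that median with amiodarone against vehicle, 45 with dabigatran against vehicle, and 34 (combination against amiodarone) and 40 (combination against dabigatran) lay above it. The plot of medians under each scaling shows the subunits and all genes shifting together.

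**Figure D4:**
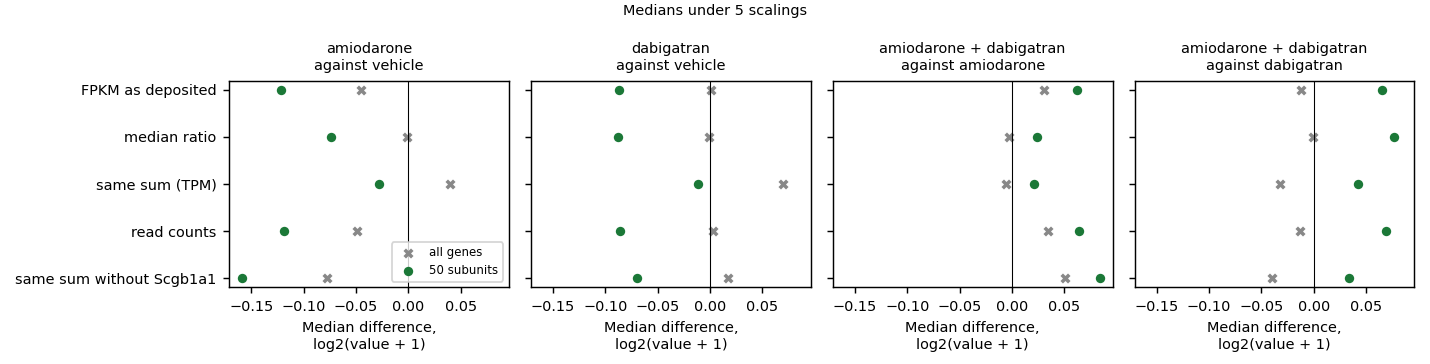
Median difference on the log2(value + 1) scale for the 50 subunits (circles) and all 13183 genes tested (crosses) under 5 scalings of the libraries, with 1 panel per comparison. The subunit median lies left of the median of all genes in both comparisons with vehicle and right of it in both comparisons of the combination; that order is nearly fixed, since a scaling shifts all genes of a library together.

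Several genes of the family share sequence. Ndufb4 and the copy Ndufb4c (chr15:73809449-73809933) have coding sequences in the GENCODE transcripts that are identical over 390 of 390 bases, so reads from this stretch were divided between them by estimation. Their first 60 coding bases are shown because the copies cannot be told apart there, and no capitals are used.
Ndufb4: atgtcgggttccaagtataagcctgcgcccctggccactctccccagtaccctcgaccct
Ndufb4c: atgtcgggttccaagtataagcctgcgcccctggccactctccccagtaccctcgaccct
Ndufb4 was listed at 129.5, 119.1, 122.9 and 120.9 FPKM in the vehicle, amiodarone, dabigatran and combination libraries, and Ndufb4c at 16.0, 15.5, 16.2 and 18.6 FPKM. Both values are uncertain for this reason. Ndufb4b was at 0 in 3 libraries and at 0.62 FPKM, or 4.57 estimated reads, with dabigatran. Ndufa11b, annotated by RefSeq as a transcribed pseudogene, measured 0, 0.04, 0.12 and 0.04 FPKM, so neither gene allowed a comparison at this depth.

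Of the subunits the symbol rule leaves out, Ndufab1, the mitochondrial acyl carrier protein within complex I, measured 72.1, 56.1, 65.7 and 62.9 FPKM in the vehicle, amiodarone, dabigatran and combination libraries. Its amiodarone to vehicle ratio was 0.778 (0.70 to 0.865). Cyc1, the cytochrome c1 of complex III, measured 73.7, 63.6, 60.2 and 65.9 FPKM, with ratios of 0.863 (0.801 to 0.93) for amiodarone and 0.817 (0.757 to 0.882) for dabigatran against vehicle. Both genes were highest in the vehicle library.

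Assembly factors build the complexes without remaining in them. Of 25 such genes for complexes I to III, 21 were lower with amiodarone than with vehicle, 8 by at least 1.2-fold and 0 higher by that amount. For this list and those that follow, the background is that of all genes. Of these 58.6% were lower with amiodarone, 18.6% by at least 1.2-fold, and 49.4% were lower with dabigatran. The median differences of the assembly factors were -0.18 (amiodarone against vehicle), -0.09 (dabigatran against vehicle), 0.20 (combination against amiodarone) and 0.01 (combination against dabigatran, 0.006). The lowest ratios were those of Ndufaf6, a complex I factor, at 0.549 (0.362 to 0.823) from 3.70 to 2.03 FPKM, and Lyrm7, an assembly factor for the Rieske protein, at 0.621 (0.427 to 0.898) from 2.14 to 1.33 FPKM. The highest were Ndufaf5 at 1.13 (0.846 to 1.5) and Sdhaf2 at 1.07 (0.960 to 1.2), which attaches the flavin to Sdha. These genes were expressed at lower levels than the subunits, and their intervals were wide.

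The later steps of the chain showed differences of similar size. In complex IV, 9 of 13 subunits were lower with amiodarone, 2 by at least 1.2-fold, with a median of -0.08 (-0.078), and 12 of 13 were lower with dabigatran, with a median of -0.15. Cox7a1, the isoform of heart and skeletal muscle, measured 39.9, 21.3, 35.0 and 16.6 FPKM, an amiodarone to vehicle ratio of 0.534 (0.424 to 0.670), and Cox7c stood at 0.786 (0.729 to 0.847). Cox4i2, an isoform known from the lung, stood at 1.03 (0.941 to 1.13) and Cox6a1 at 1.01 (0.963 to 1.07). In ATP synthase, 13 of 16 subunits were lower with amiodarone and 15 of 16 with dabigatran, with medians of -0.10 and -0.09. Atp5e, the epsilon subunit of the catalytic part, stood at 0.725 (0.651 to 0.807) and Atp5mpl at 0.831 (0.727 to 0.95) of vehicle with amiodarone, and Atp5k at 1.08 (0.905 to 1.30).

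In coenzyme Q synthesis 9 of 13 genes were lower with amiodarone, with a median of -0.18. Coq8a, a kinase-like regulator, stood at 0.606 of vehicle (0.540 to 0.679) and Coq10b, a coenzyme Q carrier, stood at 1.11 (0.992 to 1.25). Of 13 tricarboxylic acid cycle enzymes 11 were lower, with a median of -0.11, from Sucla2 at 0.818 (0.745 to 0.898) to Suclg2 at 1.08 (0.966 to 1.2). Regulators of mitochondrial biogenesis were spread about 0, with 7 of 13 lower and a median of -0.02. Twnk, the helicase of mitochondrial DNA, stood at 0.615 (0.499 to 0.757), and Ppargc1a, the coactivator of the biogenesis programme, at 1.32 (1.06 to 1.64) from 1.31 to 1.73 FPKM. Of 17 genes of mitochondrial membranes and protein import 8 were lower, with a median of 0.01 (0.006), where the ADP/ATP carrier Slc25a4 stood at 0.833 (0.797 to 0.872) and the import channel Tomm40 at 1.07 (0.961 to 1.19).

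Ribosomal proteins gave a scale for these shifts. Of 78 mitochondrial ribosomal protein genes 53 were lower with amiodarone and 49 with dabigatran, with medians of -0.07 and -0.04, where 58.6% and 49.4% of all genes were lower. Of 79 cytosolic ribosomal protein genes 60 were lower with amiodarone and 77 with dabigatran, with medians of -0.06 and -0.17. With dabigatran the cytosolic ribosomal median thus lay below that of each respiratory complex, and against dabigatran alone the combination gave a cytosolic ribosomal median of 0.20 (0.195), above the 0.06 to 0.08 of the complexes. Small shifts of the same directions were therefore not particular to complexes I to III. The plot of list medians sets the complexes beside these lists.

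**Figure D5:**
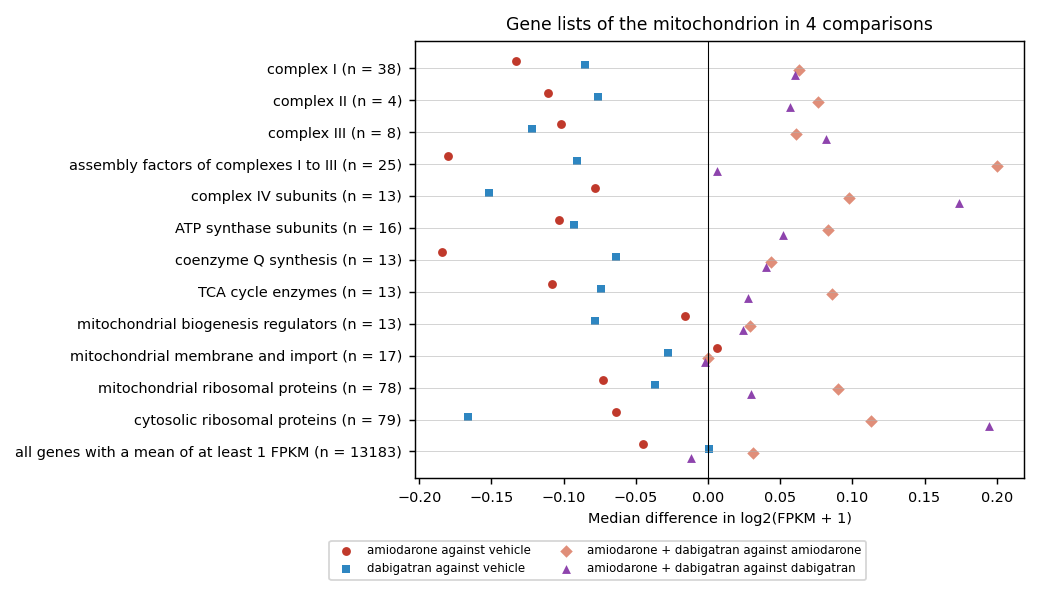
Median difference in log2(FPKM + 1) of complexes I, II and III, of 9 other gene lists and of all genes tested in 4 comparisons; each marker is the median over the genes of a list and n is the number of genes, with 1 library per group. Complexes I to III lie between -0.13 and -0.08 in the comparisons with vehicle and between 0.06 and 0.08 in the others, next to medians of 0.00 and -0.05 for all genes against vehicle.

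Markers of several cell types differed more between libraries than the subunits did. Fewer cells of a type and less RNA per cell cannot be told apart in bulk tissue. The summed level of 16 cardiac muscle genes was 2430, 1340, 1680 and 1200 FPKM in the vehicle, amiodarone, dabigatran and combination libraries, with 16 of 16 lower with amiodarone than with vehicle, 15 of them by at least 1.2-fold, and none at 0. Actc1, the cardiac actin, measured 413.1, 174.7, 325.7 and 182.8 FPKM. The sum of 3 club cell genes was 130000, 77800, 104000 and 102000 FPKM and that of 5 ciliated cell genes 627, 421, 560 and 479 FPKM. These 3 sums were highest in the vehicle library, also without the most abundant marker of each. The alveolar type 2 sum was not, at 25400 FPKM with vehicle and 26800 FPKM with the combination. The cardiac sum was the lowest of the 4 in the combination library.

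Markers of inflammatory cells differed most between libraries with and without amiodarone. The sum of 8 macrophage genes was 197, 905, 223 and 1140 FPKM, most of it in the amiodarone libraries from Chil3, a secreted chitinase-like protein, at 90.3, 731.2, 113.4 and 940.3 FPKM. The other 7 summed to 106, 174, 110 and 197 FPKM. Of the 8 macrophage genes, 8 were higher with amiodarone than with vehicle, 6 by at least 1.2-fold, against 41.1% and 11.5% of all genes. With the combination 7 were higher than with amiodarone alone, where 57.9% of all genes were, and 1, Cd14, was lower. Csf1r stood at 1.05 (0.997 to 1.11) and Cd14 at 1.16 (1.05 to 1.28) of vehicle with amiodarone. Cd14 stood at 0.786 (0.710 to 0.869) of amiodarone alone with the combination. The sum of 5 neutrophil genes was 89.6, 586, 66.9 and 422 FPKM, and without S100a9, the most abundant of them, 44.6, 309, 35.7 and 215 FPKM. Both lists were thus higher in the libraries with amiodarone than in those without it. Red cell genes summed to 15800, 21400, 17500 and 8520 FPKM, and 5 endothelial genes to 804, 902, 935 and 764 FPKM. Skeletal muscle genes summed to 4.40 to 10.4 FPKM and adipose genes to 29.0 to 36.5 FPKM. The part of any of these cell types in the subunit levels was not tested.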

How the data were processed

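Polyadenylated RNA of mouse lung was sequenced on the DNBseq platform, with 1 library for each of 4 treatments. By the study's methods, the authors mapped reads to GRCm38.p6 with HISAT and to reference transcripts with Bowtie2 and estimated expression with RSEM. The deposited table holds estimated counts (RSEM read counts that need not be whole) and a length-corrected level for each of 17780 genes. The authors did not name the unit of that level in the table, and FPKM was inferred from the values and the read counts. The deposited levels do not sum to the same total in each library. Effective lengths were computed from the reads and levels with that unit assumed, so they are no separate check of it. The study's methods give a somewhat earlier day of tissue collection than the 28 days of the labels. Another 8 deposited columns hold the authors' means over pairs of libraries and were not used.

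Differences were taken in log2(FPKM + 1), which understates the change of low genes, for the 13183 genes that averaged 1 FPKM or more, and the 1.2-fold bound is 0.263 on that scale. Counting intervals used the estimated counts rounded to whole numbers (Python 3.11.15, pandas 2.3.3, scipy 1.17.1, matplotlib 3.10.9). With 1 library per group no test was run. Depth was 17498486 to 18903401 reads per library, and a count of 0 allows up to 3 reads, or 0.159 to 0.171 FPKM for a transcript of 1 kilobase. Scripts were tested on simulated data.

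The members, gene lists and comparisons were chosen with earlier results of these data known. Named were all genes of complexes II and III. In complex I the 3 largest rises and falls per comparison among genes averaging 10 FPKM or more, the core subunits, the 3 highest levels and genes under 1 FPKM were named. From each other list up to 2 rises and 2 falls between amiodarone and vehicle were named, and up to 4 markers per cell type. The values of 1 subunit are not reported here, though it enters counts and medians. Genes past the 1.2-fold bound, beyond counting error, at its edge or with a motif match were named after their values were seen. Alternatives were a pseudocount of 0.1 FPKM, the median ratio over 12728 genes, FPKM set to the same sum (TPM), read counts per library total, filters on level, bounds of 1.1-fold and 1.5-fold, and leaving out Ndufa4 and Ndufa4l2. The same sum without Scgb1a1, leaving out Ndufb4 and Ndufb4c, the difference of the amiodarone steps, marker sums without the most abundant marker, the library of the highest level under other scalings and the loose motif with 1 free base in the middle were chosen after seeing the data. Of the 52 members, 52 were matched by gene ID to RefSeq GRCm38.p6, which gave positions and promoter windows.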

Additional observations from a re-analysis of the deposited data

Results flagged for a closer look

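The amiodarone step had opposite directions without and with dabigatran, and the difference between the steps was not tested, since each step rests on 1 library against 1. In complex I the median difference in log2(FPKM + 1) was -0.133 between amiodarone and vehicle and 0.060 between the combination and dabigatran. In complex II the medians were -0.111 and 0.057, and in complex III -0.102 and 0.082. Of single genes whose counting intervals excluded 1 on opposite sides, Ndufb7 had FPKM ratios of 0.865 and 1.23, Ndufs6 of 0.766 and 1.15, and Uqcrc1 of 0.939 and 1.08 in the 2 steps. With FPKM set to the same sum in each library (TPM) the medians of complexes I, II and III were nearer 0. They were -0.039, -0.017 and -0.007 in the first step and 0.037, 0.034 and 0.059 in the second. The median of all genes was -0.045 as deposited and 0.040 by TPM in the first step, and -0.012 and -0.032 in the second. On both scales the complexes lay below all genes in the first step and above them in the second, an order that scaling nearly fixes. By TPM the ratios were 0.924 and 1.21 for Ndufb7, 0.818 and 1.13 for Ndufs6, and 1.0 and 1.06 for Uqcrc1.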

How the results depend on the processing

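No paired analysis was possible because each group has 1 library, the labels carry no shared replicate numbers and no result comes from a test. Replicates could not be left out for the same reason. Of 92 alternative complex medians 86 stayed within the binomial 95% interval of the median over subunits (for complexes II and III, their range), 6 moved and 0 reversed. That interval takes subunits as its units, not libraries or animals. The filter at 10 FPKM kept the same subunits, since the lowest of them (Ndufb4c) averaged 16.6 FPKM, so its 12 medians could not move. A pseudocount of 0.1 FPKM could hardly move genes at these levels, so the count of 86 is no measure of robustness. With FPKM set to the same sum (TPM), the amiodarone to vehicle median was -0.039 in complex I and -0.017 in complex II, the dabigatran to vehicle median -0.011 and -0.000, and the combination to amiodarone median of complex I 0.021. In complex III, whose wide range over 8 subunits holds them, the TPM medians were also nearer 0, at -0.007 (amiodarone to vehicle, -0.102 as deposited) and -0.046 (dabigatran to vehicle, -0.122 as deposited). With the same sum without Scgb1a1 the dabigatran to vehicle median of complex I was -0.068. Of 64 alternative counts 48 stayed within 1.5 times and 16 moved. The shares of all genes past these bounds under other scalings, or past the other bounds, are not given here or above. Such counts describe the subunits only and cannot be set against the whole table. Subunits lower with amiodarone than vehicle numbered 3 by the median ratio, 1 by TPM, 24 at 1.1-fold and 0 at 1.5-fold, and 1 was higher at 1.1-fold. Those lower with dabigatran than vehicle numbered 0 by TPM, 12 at 1.1-fold and 0 at 1.5-fold. Those higher with the combination than amiodarone numbered 2 by TPM, 11 at 1.1-fold and 0 at 1.5-fold, and 1 was lower at 1.1-fold. Those higher with the combination than dabigatran numbered 6 at 1.1-fold, 0 at 1.5-fold and 0 with the same sum without Scgb1a1, and 2 were lower at 1.1-fold. The second amiodarone step less the first gave 0.046, 0.018 and 0.039 in complexes I, II and III by TPM. Of 400 alternative gene ratios 393 stayed within their counting interval, 6 moved and 1 reversed, that of Uqcrc1 for amiodarone against vehicle at 1.0 by TPM (0.939 as deposited). The shift under TPM follows from its construction, since each library is divided by a sum of which Scgb1a1 takes 13.3% to 21.0%. Depth limits differences of single subunits to those outside the counting intervals given, and the spread between animals is unknown.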
